A study of Homo sapiens with 6 samples.

Results

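The genes described here encode 9 RNA-binding proteins of 4 families, MBNL1, MBNL2 and MBNL3, RBFOX2, CELF1 and CELF2, and RBMS1, RBMS2 and RBMS3. They were selected by gene symbol among the 74852 loci of the deposited expression table, and the rule used no value, although the families were picked with earlier results of these data known. Each symbol was found on 1 locus that carried no other symbol. Of the 9 genes, 7 reached a mean of at least 10 normalized reads over the libraries and were tested, among 18849 such loci, whereas MBNL3 and CELF2 remained below this minimum.

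The cells were MDA-MB-231, an established human cell line of triple-negative breast cancer (TNBC), a subtype that lacks the estrogen and progesterone receptors and HER2 amplification. They received either non-targeting siRNAs (the si-CTRL group) or 4 pooled siRNAs directed at SAM68 (the si-SAM68 group) by transient transfection, and 3 libraries of polyadenylated RNA were made per group. Sam68, encoded by KHDRBS1, is an RNA-binding protein that regulates splicing. By the labels the cells went through 2 rounds of transfection and were collected 24 h after the last of them, while the methods of the study give another harvest time. Both groups had thus received siRNA and transfection reagent, the depletion was transient, and the comparison rests on a single cell line. The labels do not say whether the libraries came from separate cultures, so that p-values measure the spread between these libraries, which may be technical.

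Members of these families are best known for setting splicing patterns that differ between tissues. MBNL proteins bind RNA through zinc fingers and promote the splicing pattern of differentiated muscle and other tissues, and their sequestration by expanded CUG repeats underlies myotonic dystrophy. CELF proteins bind GU-rich RNA, act against MBNL proteins on many developmentally regulated exons and, in the cytoplasm, promote the decay of GU-rich mRNAs. RBFOX2 binds UGCAUG next to exons and takes part in the splicing changes of the epithelial-mesenchymal transition. RBMS proteins bind single-stranded nucleic acids, often AU-rich, and have been linked to splicing and to mRNA stability. The values are sums of reads over a whole gene, so that they measure how much RNA of each regulator was present, and neither its splice forms nor its activity.

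To check the labels, the targeted gene was examined first. KHDRBS1 was at 15660, 14480 and 14740 normalized reads in the control libraries and at 583, 602 and 670 in the depleted ones, in the order of replicates 1, 2 and 3 that is used throughout. Its mean fell to 4.13% of the si-CTRL mean, a log2 fold change of -4.60 with a standard error of 0.083 (limma, adjusted p = 2.13e-09). The sequences of the siRNA pool are shown because they define the depletion and because the same bases recur in the RNAs of several regulators described below. Written 5′ to 3′ as the sense strand, with capitals for the 7 bases that pair with guide positions 2 to 8 (the seed), they were as follows.
siSAM68_1: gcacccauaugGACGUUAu
siSAM68_2: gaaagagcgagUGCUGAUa
siSAM68_3: uaugauggaugAUAUCUGu
siSAM68_4: aaagaucucugUAUUGGGa
The first 3 matched both annotated coding RNAs of KHDRBS1 over all 19 bases, and siSAM68_4 matched 1 of the 2.

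The depth was between 52625492 and 82568487 reads per library. Mesenchymal genes of this line, VIM, CD44, AXL, CAV1 and MSN, were between 43110 and 173200 normalized reads. Of the markers expected to be low, PGR was at 0, EPCAM, CDH1 and ESR1 did not exceed 15.2, and GATA3 was present at 331 to 542. The summed level of 6 markers of blood, endothelial, stromal and liver cells was between 51.3 and 66.6 in si-CTRL and between 57.0 and 68.1 in si-SAM68. In bulk RNA, fewer cells that express a gene and less of its RNA per cell cannot be told apart. Of the reads of si-SAM68 replicate 2, 15.1% fell on an rRNA locus that held 1.83% to 3.17% in the other libraries. In addition, si-CTRL replicate 1 lay further from the rest of its group than any other library did, with a median distance over all tested loci of 0.222 on the log2 scale, against 0.0995 to 0.149 for the other 5 libraries. Values without this library are therefore given beside the results.

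Depletion of Sam68 was accompanied by lower RNA of 2 of the 7 tested regulators, CELF1 and RBMS3, at an adjusted p-value under 0.05 (limma, Benjamini-Hochberg over all tested loci). Both were at about the same fraction of their control level, 78.3% for CELF1 and 75.2% for RBMS3. With the replicate number as a block, the count was 1, CELF1, and RBMS3 had an adjusted p-value of 0.0525. No regulator was called higher in the comparison of all 6 libraries, although 4 of the 7 had a log2 fold change above 0. Over all loci tested, 10.7% had an adjusted p-value under 0.05, 6.23% with lower and 4.47% with higher RNA. The median log2 fold change of the 7 regulators was 0.0001, and that of all loci 0.005. The thresholds used in the study were an unadjusted p-value not above 0.05 together with a 1.5-fold change. They were applied here to the limma values, which are not those of the study. None of the 7 passed them, while 7.67% of all loci did. This count was also 0 with edgeR and DESeq2 on the reads, and 2 of the 7 had an unadjusted p-value under 0.05, as 27.0% of all loci did. The libraries of the 2 groups did not overlap for 2 of the 7, CELF1 and RBMS3, as for 33.9% of all loci.

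**Figure D1:**
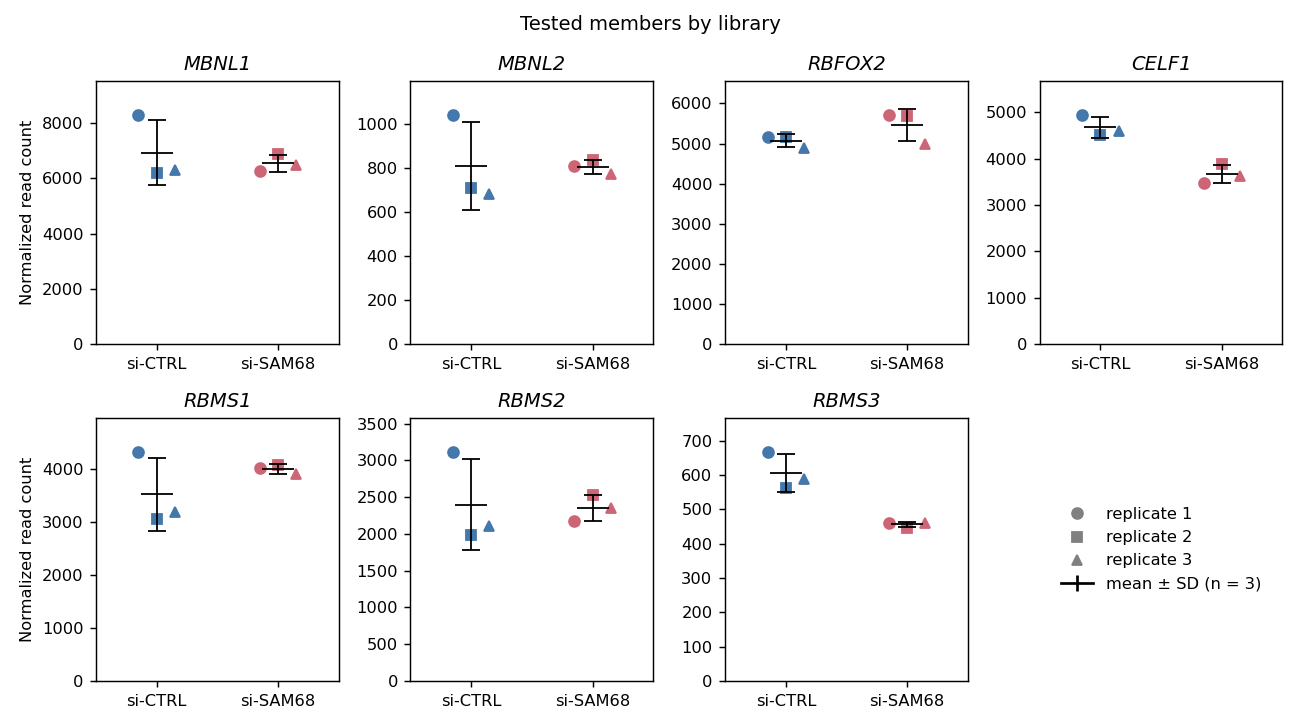
Normalized read count of the 7 tested regulators in each library, with a separate vertical axis from 0 for each gene; symbols mark the replicate number, and bars the mean ± SD of 3 libraries. The si-SAM68 libraries lie below all si-CTRL libraries for CELF1 and RBMS3, and si-CTRL replicate 1 is the highest of the 6 libraries for every gene but RBFOX2.

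CELF1, also known as CUG-binding protein, is the CELF protein found in most tissues. Its locus (hg19, chr11:47487491-47574792) had 4929, 4500 and 4597 normalized reads in the si-CTRL libraries and 3483, 3871 and 3623 in the si-SAM68 libraries. Every control library was thus above every depleted one, and the SD was 225 and 197 around means of 4676 and 3659. The log2 fold change was -0.35, with a standard error of 0.078 and a 95% confidence interval of -0.53 to -0.18 (limma, adjusted p = 0.0205). Without si-CTRL replicate 1 it was -0.32 (adjusted p = 0.0108), and with the replicate number as a block the adjusted p-value was 0.0427. The adjusted p-value was above 0.05 with eBayes without a trend (0.0724) and when si-CTRL replicate 3 or any one of the si-SAM68 libraries was left out, reaching 0.0899 without si-SAM68 replicate 3.

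CELF2, the other member of the CELF family examined, which is abundant in brain, heart and lymphoid cells, was nearly absent. It had 0, 2 and 2 reads in the si-CTRL libraries and 4, 2 and 2 in the si-SAM68 libraries. The exact 95% Poisson interval was 1.09 to 10.2 reads for the sum of si-CTRL and 3.45 to 15.8 for that of si-SAM68, covering counting error only. No fold change is given, since both groups are close to the floor of 3 reads per library. CELF1 therefore accounted for 99.97% of the summed CELF1 and CELF2 reads per kilobase in si-CTRL and 99.93% in si-SAM68. The fall of CELF1 left the sum of both genes at 478 ± 25.5 normalized reads per kilobase (SD, n = 3), compared with 610 ± 29.2 in si-CTRL, both per kilobase of the longest annotated RNA.

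RBMS3 is a member of the RBMS family that acts on mRNA stability. Its locus (hg19, chr3:29322803-30051886) had 667, 563 and 589 normalized reads in the si-CTRL libraries and 461, 447 and 460 in the si-SAM68 libraries. The 3 depleted libraries were close to each other and all lay below the lowest control. The log2 fold change was -0.41, with a standard error of 0.104 and a 95% confidence interval of -0.64 to -0.18 (limma, adjusted p = 0.0355). Without si-CTRL replicate 1 it was -0.34 (adjusted p = 0.0401). The call was lost with the replicate block, at an adjusted p-value of 0.0525, without a filter (0.0539), with quantile normalization (0.0505), with eBayes without a trend (0.0652), and when si-CTRL replicate 3 or any si-SAM68 library was left out, with the highest adjusted p-value, 0.129, without si-SAM68 replicate 2.

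RBMS1, first described as a single-stranded DNA-binding protein of the MYC promoter region and later as a regulator of RNA, did not pass the test. Its locus (hg19, chr2:161128663-161350318) had 4313, 3060 and 3189 normalized reads in the si-CTRL libraries and 4007, 4077 and 3901 in the si-SAM68 libraries. A single library decided this result: the depleted libraries were above si-CTRL replicates 2 and 3 and below si-CTRL replicate 1. This amounted to a log2 fold change of 0.20, with a 95% confidence interval of -0.07 to 0.47 (limma, adjusted p = 0.323). Without si-CTRL replicate 1 it was 0.35, with a standard error of 0.063 and an adjusted p-value of 0.00425. No other alternative gave RBMS1 an adjusted p-value under 0.05.

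RBMS2, a close relative with the same kind of RNA-binding domains, had nearly the same mean level in both groups. The values of its locus (hg19, chr12:56915609-56989980) were 3115, 1981 and 2102 in the si-CTRL libraries and 2175, 2529 and 2358 in the si-SAM68 libraries. As for RBMS1, the first control library stood above all others and the remaining controls below all depleted libraries. Its log2 fold change was 0.0001, and the 95% confidence interval ran from -0.34 to 0.34 (limma, adjusted p = 1.00). Without si-CTRL replicate 1 it was 0.20 (adjusted p = 0.116).

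To ask whether the RBMS paralogs changed differently, the log2 ratio of their reads was compared within each library, where gene length and the scale of the library cancel. The ratio of RBMS3 to RBMS1 was between -2.69 and -2.43 in si-CTRL and between -3.19 and -3.08 in si-SAM68, a change of -0.61. The ratio of RBMS3 to RBMS2 changed by -0.41 and that of RBMS2 to RBMS1 by -0.20, and for these pairs as well the groups did not overlap. For RBMS3 over RBMS2 the gap was narrow, from -2.2207 (lowest si-CTRL) to -2.2345 (highest si-SAM68). Of single loci, 33.9% did not overlap, and the share for gene pairs at large was not determined. The RBMS ratios share genes and are not independent. Each of them gave p = 0.1 in the two-sided exact permutation test, the smallest value that 3 against 3 libraries allow, and 0.133 after adjustment over the 4 pairs of paralogs that could be compared. The change for RBMS3 over RBMS1 was between -0.69 and -0.56 when single libraries were left out. Per kilobase of the longest annotated RNA, RBMS3 made up 6.10 ± 0.644% of the RBMS reads in si-CTRL and 4.21 ± 0.183% in si-SAM68 (SD, n = 3). The share of RBMS1 was 69.8 ± 0.591% and 73.7 ± 1.1%, and that of RBMS2 24.1 ± 1.22% and 22.1 ± 1.22%. These shares rest on the lengths: with the median length of the coding RNAs, an alternative chosen after seeing the data, they were 9.18% and 6.55% for RBMS3, 51.2% and 55.9% for RBMS1, and 39.6% and 37.6% for RBMS2.

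MBNL1 is the muscleblind protein of most adult tissues. Its locus (hg19, chr3:151986257-152183568) had 8285, 6192 and 6300 normalized reads in the si-CTRL libraries and 6281, 6886 and 6506 in the si-SAM68 libraries. The groups overlapped, and si-CTRL replicate 1 alone was above all depleted libraries. For MBNL1 the log2 fold change was -0.07, with a standard error of 0.112 and a 95% confidence interval of -0.32 to 0.18 (limma, adjusted p = 0.746). Its sign depended on that library, since it was 0.07 without si-CTRL replicate 1 (adjusted p = 0.51).

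MBNL2, which is prominent in brain, had 1041, 709 and 684 normalized reads in the si-CTRL libraries and 810, 838 and 775 in the si-SAM68 libraries (hg19, chr13:97794090-98046374). The depleted libraries again lay between the first control and the other controls. MBNL2 had a log2 fold change of 0.02, with a 95% confidence interval of -0.32 to 0.36 (limma, adjusted p = 0.952), and 0.21 without si-CTRL replicate 1 (adjusted p = 0.132). The log2 ratio of MBNL2 to MBNL1 changed by 0.09 (two-sided exact permutation test, p = 0.3), with overlapping groups. MBNL2 made up 13.9 ± 0.885% of the MBNL reads per kilobase in si-CTRL and 14.6 ± 0.509% in si-SAM68, with the same lengths.

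MBNL3, a muscleblind protein of placenta and of dividing muscle precursors, was at the limit of detection in these cells. It had 2, 2 and 4 reads in the si-CTRL libraries and 4, 2 and 0 in the si-SAM68 libraries (hg19, chrX:131503342-131623996). The exact 95% Poisson intervals of the sums, 3.45 to 15.8 reads in si-CTRL and 2.20 to 13.1 in si-SAM68, overlapped widely.

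RBFOX2 was the steadiest of these genes in the control group, and the only tested one whose highest library was not si-CTRL replicate 1. Its locus (hg19, chr22:36134784-36424585) had 5176, 5160 and 4882 normalized reads in the si-CTRL libraries and 5704, 5678 and 5002 in the si-SAM68 libraries. The first and second depleted libraries were above all controls and the last lay among them. The log2 fold change was 0.10, with a standard error of 0.080 and a 95% confidence interval of -0.07 to 0.28 (limma, adjusted p = 0.436), and it stayed between 0.07 and 0.17 in all alternatives. The other genes of the family, RBFOX1 and RBFOX3, were at 0 and at no more than 5.7 normalized reads in any library.

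**Figure D2:**
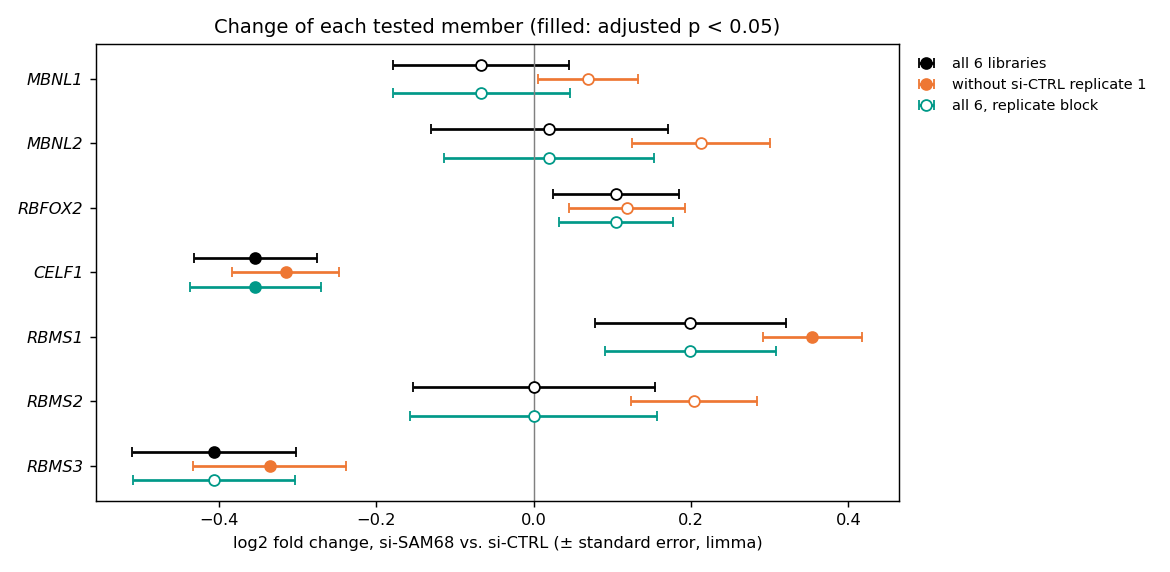
Log2 fold change of each tested regulator in si-SAM68 vs. si-CTRL libraries (horizontal axis, points with standard errors from limma), with all 6 libraries, without si-CTRL replicate 1, and with the replicate number as a block; filled points have an adjusted p-value under 0.05. CELF1 is filled in all 3 fits, RBMS3 in the fits without the block, and RBMS1 only without si-CTRL replicate 1, where it moves from 0.20 to 0.35.

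The control library that stood apart thus touched the regulators unequally. Of the 7 tested genes, 6 were highest in si-CTRL replicate 1, as were 27.5% of all loci. Relative to the other controls it was higher by 0.61 for RBMS2, 0.58 for MBNL2, 0.47 for RBMS1 and 0.41 for MBNL1 on the log2 scale. The difference was 0.21 for RBMS3, 0.12 for CELF1 and 0.04 for RBFOX2. The part of this library in the results was not tested beyond leaving it out.

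Levels of different genes were set side by side only per kilobase of the longest RNA annotated for each gene. In si-CTRL, MBNL1 came first, at 1072 ± 183 normalized reads per kilobase (SD, n = 3), before RBMS1 at 824 ± 161, RBFOX2 at 732 ± 23.9 and CELF1 at 610 ± 29.4. RBMS2 followed at 286 ± 74.3, MBNL2 at 174 ± 42.7 and RBMS3 at 71.0 ± 6.37. The libraries of MBNL1 and RBMS1 overlapped, as did those of RBMS1 and RBFOX2, so that the order of these neighbours was within their spread, while all later neighbours were separated in every control library. The order was the same in si-SAM68. It rests on the choice of length: with the median length of the coding RNAs of each gene, which is 622 bases for CELF1, CELF1 came first at 7517 and RBFOX2 second at 3744, and MBNL2 came last at 177.

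**Figure D3:**
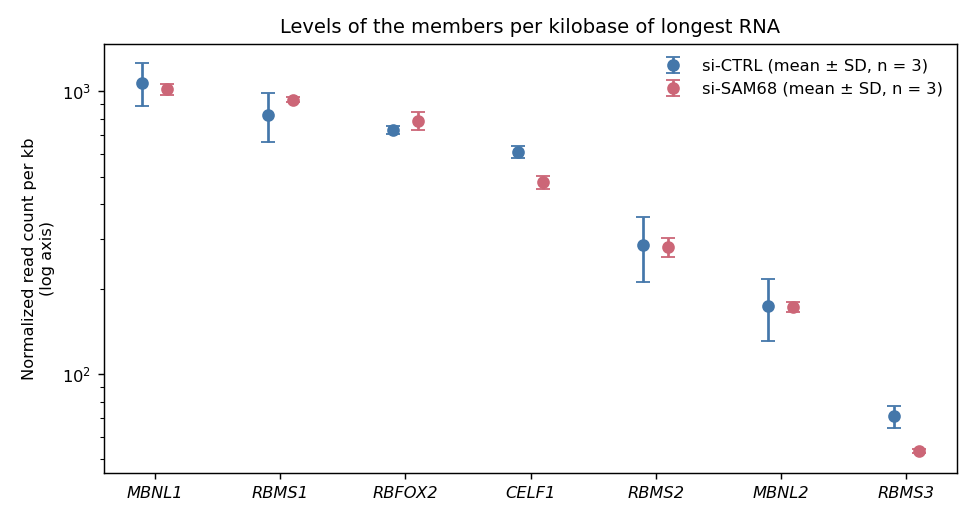
Normalized read count per kilobase of the longest annotated RNA (vertical log axis) for the 7 tested regulators in the si-CTRL and si-SAM68 groups, ordered by the si-CTRL level; points are means and bars the SD of 3 libraries. Levels run from 1072 for MBNL1 to 71.0 for RBMS3 in si-CTRL, and CELF1 and RBMS3 are the genes whose bars are separated between the groups.

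Loci inside or next to these genes were also examined, because reads of overlapping loci can be shared when the counting does not use strand. The labels name a stranded library kit, but the sources used here do not state whether the counting used strand. The annotation holds 69 loci that overlap one of the 9 genes, and 15 of them, 11 without a symbol, were tested. In 2 of the 15 the RNA rose at an adjusted p-value under 0.05, and both overlap MBNL1, while 4.47% of all tested loci were called higher. All 15 had a log2 fold change above 0, as did 50.9% of all tested loci and 58.3% of those without a symbol. The loci GSHG0005742, GSHG0018098, GSHG0020661, GSHG0020662 and GSHG0020663 had a si-CTRL mean below 10 and reached the minimum only through si-SAM68. For GSHG0020662 the means were 5.19 and 17.1. Their sign was thus largely fixed by the filter. Highest in si-SAM68 replicate 2, the library rich in rRNA reads, were GSHG0008232, GSHG0008234, GSHG0018098, GSHG0020348, GSHG0020662, GSHG0020663, GSHG0021258, GSHG0022163 and the gene BAZ2A. Among them, GSHG0021258 was called higher.

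MBNL1-AS1, a long non-coding RNA gene annotated antisense to MBNL1 (hg19, chr3:151980425-151987415), shares 1159 bases with the start of the MBNL1 locus. It had 1209, 1194 and 1242 normalized reads in the si-CTRL libraries and 1949, 1990 and 2031 in the si-SAM68 libraries. The 3 libraries of each group were within a narrow range, and the groups were far apart. This was a log2 fold change of 0.71, with a standard error of 0.077 (limma, adjusted p = 0.000853), and it was between 0.70 and 0.73 in all 17 alternatives, each of which kept an adjusted p-value under 0.05. The log2 ratio of MBNL1-AS1 to MBNL1 went from -2.50 ± 0.24 to -1.72 ± 0.06 (SD, n = 3), a change of 0.78 with p = 0.1 in the two-sided exact permutation test, the smallest possible, in a comparison chosen after the values had been seen. An unnamed locus inside MBNL1 (GSHG0021258, hg19, chr3:152020304-152020588) had 18.8, 51.3 and 35.2 normalized reads in si-CTRL and 69.5, 78.2 and 76.0 in si-SAM68, a log2 fold change of 1.17 (limma, adjusted p = 0.0471). It was 0.79 without si-CTRL replicate 1, its lowest library (adjusted p = 0.0446), and the call held in 9 of 17 alternatives, with an adjusted p-value of up to 0.163.

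**Figure D4:**
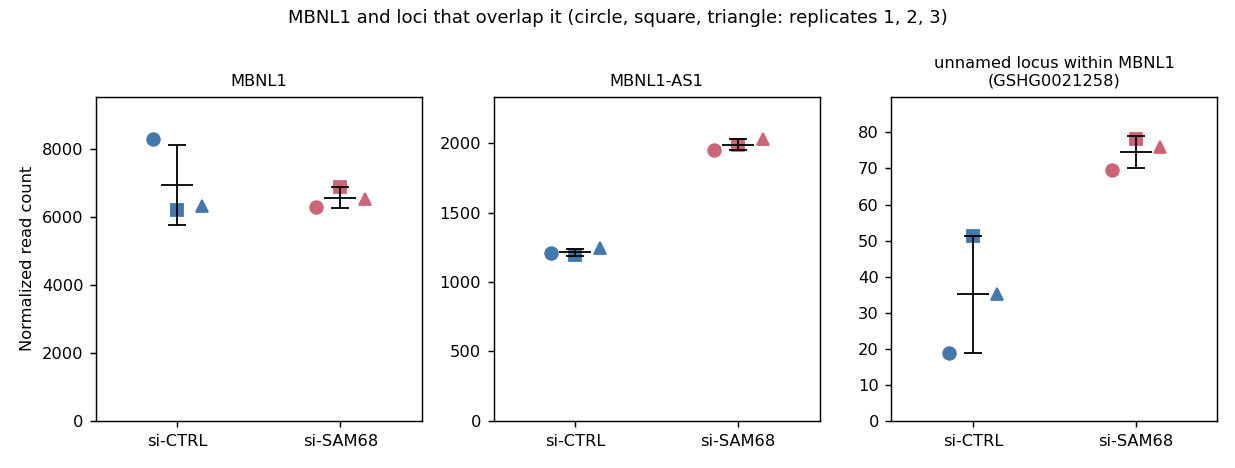
Normalized read count of MBNL1, of the antisense gene MBNL1-AS1 and of an unnamed locus inside MBNL1 in each library, each with its own vertical axis from 0; bars are the mean ± SD of 3 libraries. MBNL1-AS1 lies between 1194 and 1242 in si-CTRL and between 1949 and 2031 in si-SAM68, whereas the groups overlap for MBNL1.

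Other overlapping loci did not pass the test. Inside RBFOX2, an unnamed locus (GSHG0020347, hg19, chr22:36234325-36235480) had 2132, 5458 and 5160 normalized reads in si-CTRL and 6764, 5484 and 5897 in si-SAM68. Its log2 fold change of 0.62 (limma, adjusted p = 0.206) was 0.18 without si-CTRL replicate 1, the library with the low value. BAZ2A, a chromatin remodelling gene that shares 1054 bases with the RBMS2 locus, had a log2 fold change of 0.14 (limma, adjusted p = 0.404), which was 0.24 without si-CTRL replicate 1, where it passed the test (adjusted p = 0.0377). SFTA1P, within CELF2, had a log2 fold change of 0.14 (adjusted p = 0.521), and RAP2C-AS1, which overlaps MBNL3, one of 0.007 (adjusted p = 0.989).

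The seeds of the siRNA pool were looked up in the longest annotated 3′UTR of each regulator, as a description of where the pool could pair outside KHDRBS1. A match to the 7 capital letters of any of the 4 siRNAs, with T for U and on the strand of the mRNA only, was present 3 times in CELF1, 2 times each in RBFOX2 and CELF2, once each in RBMS1, RBMS2, RBMS3 and MBNL3, and not in MBNL1 or MBNL2. Both genes that fell, CELF1 and RBMS3, had matches, and so did 3 of the 5 tested genes that did not pass the test. Such matches are frequent in long 3′UTRs: 74.6% of the tested genes with a 3′UTR of similar length to that of CELF1 had at least 1, 78.3% for RBMS3, and 30.1% of all 11871 genes examined. All 4 matches in CELF1 and RBMS3 were to siSAM68_2. They are shown with their flanks, with the match in capitals, from the GENCODE RNAs (GRCh38), on the minus strand of chromosome 11 for CELF1 and the plus strand of chromosome 3 for RBMS3.
CELF1, chr11:47469741-47469765: cttcataccTGCTGATgggttttct
CELF1, chr11:47468747-47468771: gacctttgaTGCTGATgtgtatttt
CELF1, chr11:47468360-47468384: agcacatttTGCTGATacagtctgt
RBMS3, chr3:30007653-30007677: actggcaggTGCTGATgacagtttg
The part of these matches in the values of CELF1 and RBMS3 was not tested. The seeds of the control pool had matches in all 9 genes, 13 in CELF1 and 7 in RBMS3. At least 1 was present in 98.9% of genes of similar 3′UTR length for CELF1 and 98.9% for RBMS3. The share was 56.8% for all genes examined.

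For context, a list of 34 other splicing regulators and tissue-type RNA-binding proteins was examined in the same fit. It was drawn up with earlier results of these data known, so that its counts are a description. Of these, 24 were tested, 8 were below the minimum level, and CELF6 and ELAVL3 shared a locus with other genes and were left out. In the list, 5 genes were called lower (20.8% of those tested, against 10.7% of all loci with either direction) and none was called higher. Of the 24 genes, 13 had an unadjusted p-value under 0.05 (limma), against 27.0% of all loci. Among these 13, RBM20 and RBM47 were the 2 with higher RNA, and edgeR called neither. RBM20 was called higher by DESeq2 (adjusted p = 0.0364), with quantile normalization (limma, adjusted p = 0.0464) and without si-CTRL replicate 1 (limma, adjusted p = 0.0282). Naming these genes was decided once their values were known. Among the 24 genes, the log2 fold change was below 0 for 20 and above 0 for 4, and the median was -0.20, compared with 0.005 for all loci.

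RBPMS2, an RNA-binding protein of smooth muscle and heart, had the largest change among the regulators examined. It went from 325, 254 and 233 normalized reads in si-CTRL to 95.7, 67.2 and 55.9 in si-SAM68, a log2 fold change of -1.90 (limma, adjusted p = 0.00101). MSI1, the Musashi protein of stem and progenitor cells, fell from 109 ± 14.0 to 46.5 ± 8.09 (log2 fold change -1.22, limma, adjusted p = 0.00619). Both neuronal splicing regulators of the NOVA family fell, NOVA2 from 157 ± 26.5 to 94.6 ± 4.53 (-0.71, limma, adjusted p = 0.0261) and NOVA1 from 1219 ± 54.2 to 891 ± 83.3 (-0.46, limma, adjusted p = 0.0185). RBM38, which binds the CDKN1A mRNA, fell from 1663 ± 43.9 to 1355 ± 38.7 (-0.30, limma, adjusted p = 0.0419), a call that was lost with the replicate block (adjusted p = 0.062). The number of list genes called was between 2 and 7 when single libraries were left out, and RBPMS2 and MSI1 were called each time, alone without si-CTRL replicate 2, si-SAM68 replicate 2 or si-SAM68 replicate 3. The closest relatives of the selected genes in the list, CELF3, CELF4, RBFOX1 and RBFOX3, were below the minimum, and CELF5 went from 83.2 ± 11.9 to 54.1 ± 16.2 without passing the test (limma, adjusted p = 0.134).

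The loci whose values across the 6 libraries were most like those of CELF1 and RBMS3 were sought among 12112 loci with a single symbol and a mean of at least 50. Likeness was the root mean square distance between log2 values centred on the mean of each gene. For CELF1 the nearest were CD83, a surface protein of mature dendritic cells, at 0.030, STARD8 at 0.030, and AUTS2, a developmental gene, at 0.031. For RBMS3 they were LINC00936 at 0.025, OXCT1, an enzyme of ketone body use, at 0.026, and DZIP1, a ciliary protein, at 0.028. Each of the 6 loci had a log2 fold change between -0.44 and -0.36. This follows from the selection, since the loci were picked for likeness over the same 6 libraries.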

How the data were processed

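MDA-MB-231 libraries of si-CTRL and si-SAM68 cells (3 each) were sequenced as single-end reads. The authors deposited a signal per locus and library, that is, the number of reads on each FAST DB locus (hg19) divided by the DESeq2 size factor of the library. The submitters' processing notes also name FastQC, Picard, SAMtools and STAR 2.4.0. The labels name a stranded library kit, but the counting program and its strand setting are not given in the sources used here. Groups and replicate numbers came from the labels. Whole reads were recovered from the step between values in each library, for 100% of values (tolerance 0.01). The unit being a signal, limma 3.58.1 in R 4.3.3 (lmFit, eBayes with a trend) was fitted to log2(normalized read count + 1) for all loci with a mean of at least 10, without a replicate term, and p-values were adjusted by Benjamini-Hochberg over all of them. Fold changes are on this scale, which understates changes of low genes. Paralog ratios were compared by exact permutation tests. RNA lengths, strand and 3′UTR sequences came from GENCODE 29 (GRCh38), and siRNA sequences from the supplement of the study. The main limma fit was tested on simulated data with known changes, which held no outlying library and no pairs. The alternatives were not tested in this way.

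Pairing by replicate number was checked by correlating the libraries' deviations from their group means. The correlation was 0.105, 0.231 and 0.125 for numbers 1, 2 and 3, and between -0.125 and 0.007 for different numbers. These correlations are weak. They are also not independent of each other, because the deviations within a group cancel for each locus. The numbers were taken as possible pairs. The main fit and the exact tests of ratios ignore this possible pairing. A replicate block was fitted as an alternative, in which CELF1 (limma, adjusted p = 0.0427) was called and RBMS3 (0.0525) was not.

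The genes named are the 9 regulators, KHDRBS1, loci that overlap a regulator, genes of the list of 34 related regulators with an adjusted p-value under 0.05, and the 3 loci most like each called regulator. Further genes of that list are given where counts needed them. The regulators and lists were chosen with earlier results of these data known. List genes that share a locus only with a microRNA were kept. Alternatives were pseudocounts of 0.1 and 5, no filter, a minimum mean of 50, TMM and quantile scaling, eBayes without a trend, the block, each library left out, and edgeR 4.0.16 and DESeq2 1.42.0 on the recovered reads. edgeR with the block and shares with median RNA lengths were added after seeing the data. Precision is limited by 3 libraries per group.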

Additional observations from a re-analysis of the deposited data

How the results depend on the processing

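Of the regulators, 2 were called (adjusted p under 0.05), a count that became 1 without a filter, with quantile normalization, with the replicate block, and with edgeR and the block (chosen after seeing the data), and 0 with eBayes without a trend. It ranged from 0 to 3 when single libraries were left out, the 3 being reached without si-CTRL replicate 1, where RBMS1 joined CELF1 and RBMS3. CELF1 kept its call in 12 of 17 alternatives (adjusted p between 0.00182 and 0.0899) and RBMS3 in 8 of 17 (between 0.011 and 0.129). Both had a negative log2 fold change in all 17. The count of related regulators (5) was 3 with eBayes without a trend and 2 to 7 when single libraries were left out. Apart from RBMS3, RBM38 and, among the loci most like them, LINC00936, CD83 and AUTS2 (adjusted p = 0.0588, 0.0501 and 0.0648), the replicate block in limma changed no call of a gene named here. It was not applied to the exact tests of ratios. KHDRBS1 kept its call in all 17. Signs reversed for genes that did not pass the test. MBNL1 ranged from -0.14 to 0.0693 with single libraries left out, MBNL2 from -0.0897 to 0.2125, RBMS2 from -0.12 to 0.20 and RAP2C-AS1 from -0.0914 to 0.1212. With edgeR and DESeq2, MBNL2 was at -0.0003 and -0.0027, and RBMS2 at -0.0235 and -0.0251. With the median length of coding RNAs, levels per kilobase in si-CTRL were 7517 for CELF1, 3744 for RBFOX2, 2093 for RBMS1, 1631 for RBMS2, 1627 for MBNL1 and 370 for RBMS3. These lengths do not enter the log2 fold changes between the groups, and the cause of those changes was not tested. The depth does not allow MBNL3 and CELF2 to be compared between the groups.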
